A study of Mus musculus with 12 samples.

Results

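Gene expression in whole eyes of mice was compared between subjective night and subjective day. The night group was the 6 libraries taken at circadian times (CT) 14, 18 and 22, and the day group was the 6 libraries taken at CT2, CT6 and CT10, so that all 12 libraries of the series entered. Each phase had 3 libraries from cKO mice, which are Cre-positive and carry a retina-specific deletion of the glucocorticoid receptor gene Nr3c1, and 3 from WT mice, which are Cre-negative. All mice were male and 12 weeks old. Lights had followed a daily cycle of 12 h on and 12 h off for 2 weeks before constant darkness began. All sampling fell on day 2 in the dark, so no library was taken in light. Each library held equal amounts of RNA from 3 mice of 1 genotype and time, which puts 18 mice behind each phase. How far 1 mouse differs from another cannot be read from pools. The promoter that drives Cre is not given in the sources used here.

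Circadian time counts hours from the start of the day the animals had been trained to, and CT12 is when lights would have gone off. The vertebrate eye keeps such time by itself. Its clock is a loop in which CLOCK and BMAL1 activate the Per and Cry genes, whose proteins then shut the loop off, and the retina uses it to prepare for dim and bright light: dopamine and cAMP signalling, photoreceptor gene expression, outer segment renewal and the flow of aqueous humour all follow the time of day. Mice are active at night, when their body temperature is also high.

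Some labels speak of the ciliary body or a cell line from it and the title of the retina, whereas the protocols describe whole eyes. The libraries held transcripts of rods, lens and cornea. Summed over the members tested, rod genes made up 59057 to 67031 CPM (each library's counts scaled to 1 common total) in night libraries and 63191 to 74728 in day libraries, lens genes 44281 to 70935 in night libraries and 62949 to 86570 in day libraries, and cornea and conjunctiva genes 8469 to 12643 in night libraries and 8937 to 13073 in day libraries. The targeted gene matched the labels: Nr3c1 lay between 38.8 and 49.6 CPM in the cKO libraries and between 55.4 and 76.0 CPM in the WT libraries. Totals ran from 10466253 to 10686868 counts per library, a spread of 2.11%. Whether reads were subsampled or the counts scaled to a common total before deposit is not stated, and p-values based on counts would depend on it. The WT CT14 library stood apart from the rest, at -0.82 on the second axis of a multidimensional scaling plot on which the other 11 lay between -0.26 and 0.29.

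Of 15134 genes tested, 574 (3.79%) differed between night and day by edgeR's quasi-likelihood test at a Benjamini-Hochberg adjusted p under 0.05. Of these, 333 (2.2%) were higher in night libraries and 241 (1.59%) were lower. A call here means that the difference was larger than the spread over the 3 times of a phase and over pools. The median log2 difference was 0.28 among the higher genes and -0.26 among the lower ones, 6 genes were more than 2-fold higher and 4 were more than 2-fold lower. In 185 genes (1.22%) all 6 night libraries lay above all 6 day libraries, and in 167 genes (1.1%) all 6 lay below. Without the WT CT14 library 692 genes passed, and without the cKO CT6 library 324 did, the fewest of the 12 fits that left out 1 library.

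The genes with the smallest p-values had varied functions. Irf7, a transcription factor that drives interferon genes, lay between 60.5 and 79.7 CPM in night libraries (median 69.8) and between 28.2 and 37.8 CPM in day libraries (median 32.5), a log2 difference of 1.07 ± 0.07 (SE, adjusted p = 7.3e-08). Drd4, a dopamine receptor found on photoreceptors, whose ligand is released by amacrine cells in light, lay between 193.8 and 257.8 CPM in night libraries (median 230.9) and between 121.6 and 147.0 CPM in day libraries (median 132.9), a log2 difference of 0.76 ± 0.06 (adjusted p = 1.3e-06). For both genes every night library of either genotype was above every day library, and no difference among the 3 night times was called (adjusted p = 0.673 for Irf7 and 0.947 for Drd4).

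Sik2, a salt-inducible kinase that keeps the coactivators of the cAMP-responsive factor CREB out of the nucleus, had a mean of 78.3 ± 5.60 CPM in night libraries and of 46.2 ± 7.92 in day libraries (SD, n = 6 each). Its log2 difference was 0.76 ± 0.08 (adjusted p = 4.3e-05). Ppp2r1b, a scaffold subunit of protein phosphatase 2A, was higher by 0.56 ± 0.06 on the log2 scale (adjusted p = 2.5e-05). Aqp1, a water channel of the ciliary epithelium and cornea, was higher by 0.50 ± 0.06 (adjusted p = 6.6e-05), at 308.1 to 397.0 CPM in night libraries and 240.1 to 279.6 CPM in day libraries. Zdhhc5, an enzyme that attaches palmitate to proteins, was higher by 0.46 ± 0.05 (adjusted p = 7.6e-05). Night and day values did not overlap for any of these 4 genes.

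Among genes that were lower in night libraries, the clone-named BC027072, named after its value was seen, and Med13l had the smallest p-values. Med13l, a subunit of the kinase module of Mediator, lay between 76.2 and 79.6 CPM in night libraries and between 95.2 and 113.0 CPM in day libraries (log2 difference -0.46 ± 0.04, adjusted p = 1.1e-05). The night values spanned a narrow range and stood wholly below the day values. Glmn, which binds the RING subunit of cullin ubiquitin ligases, averaged 31.8 ± 3.26 CPM in night libraries and 55.0 ± 7.64 in day libraries (SD, n = 6 each), a log2 difference of -0.79 ± 0.08 (adjusted p = 1.6e-05). Fscn2, the actin-bundling fascin of photoreceptors, lay between 52.6 and 71.0 CPM in night libraries and between 90.1 and 97.8 CPM in day libraries (log2 difference -0.53 ± 0.06, adjusted p = 7.6e-05). Ankrd33b, Pcmtd2 and Pdzph1 completed the set, with log2 differences of -0.43 ± 0.05, -0.34 ± 0.04 and -0.76 ± 0.10. Among these genes night and day overlapped only for Pdzph1, where the WT library of CT14 lay at 100.2 CPM and that of CT2 at 99.8 CPM.

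**Figure D1:**
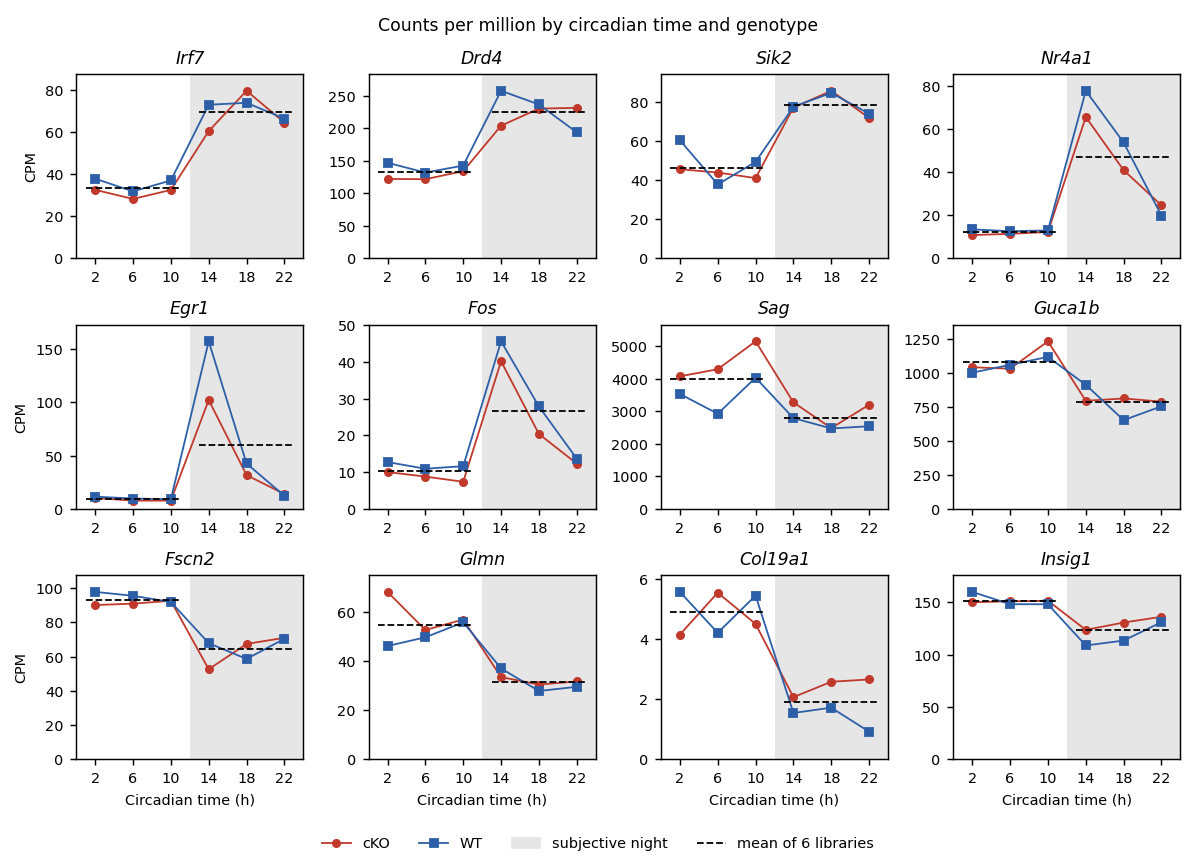
CPM (vertical axis) of 12 genes against circadian time in hours (horizontal axis), for cKO (red circles) and WT (blue squares), 1 library of 3 pooled mice per point; grey marks subjective night and dashed lines the mean of the 6 libraries of a phase. Irf7, Drd4 and Sik2 held a raised level through the night, Nr4a1, Egr1 and Fos were highest at CT14 and lower at CT18 and CT22, and Sag, Guca1b, Fscn2, Glmn, Col19a1 and Insig1 were lower at night.

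Of the 6 genes more than 2-fold higher at night 4 were immediate early genes, which are switched on within minutes by calcium, cAMP or growth factor signals. Of 30 members tested 9 were higher in night libraries and 0 lower, against 2.2% and 1.59% of all genes. The median log2 difference of the list was 0.27, with 0.00 over all genes tested. The members of this and the later lists were chosen with earlier results of these data known. Their counts may follow in part from that choice and were not tested against the shares over all genes. Egr1, a zinc-finger factor, had 102.2, 31.7 and 13.8 CPM in the cKO libraries of CT14, CT18 and CT22 and 157.4, 42.6 and 12.2 CPM in the WT libraries of those times, against 7.63 to 11.4 CPM in the 6 day libraries. Its CT22 values were thus close to the day range, although still above it. The log2 difference was 2.69 ± 0.52 (adjusted p = 0.00755). Egr1 also differed among the 3 night times (adjusted p = 1.2e-09).

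Nr4a1, an orphan nuclear receptor, followed the same order, with 65.8, 41 and 24.6 CPM in the cKO libraries of CT14, CT18 and CT22 and 78.0, 53.9 and 19.8 CPM in the WT ones, against 10.8 to 13.4 CPM in day libraries. The log2 difference was 1.95 ± 0.26 (adjusted p = 0.000668), and the night times differed (adjusted p = 7.4e-06). Fos, a subunit of the AP-1 factor, reached 40.2 CPM in the cKO and 45.7 CPM in the WT library of CT14 and 12.3 CPM in the cKO and 13.7 CPM in the WT library of CT22, against 7.36 to 12.7 CPM in day libraries, which the cKO library of CT22 overlapped (log2 difference 1.38 ± 0.27, adjusted p = 0.00686). The weakly expressed Nr4a3 was the relative of Nr4a1 that also passed, at 2.18 to 5.10 CPM in night libraries and 0.956 to 1.72 in day libraries (log2 difference 1.42 ± 0.22, adjusted p = 0.00174). No difference among its night times was called (adjusted p = 0.654). Sik1, a kinase that is itself induced by CREB, was higher by 0.66 ± 0.09 (adjusted p = 0.000706), and Ctgf, a matrix-associated signalling protein, by 0.86 ± 0.19 (adjusted p = 0.0154), a call lost without both CT2, both CT6 or both CT14 libraries (adjusted p up to 0.0974). Ier3, Dusp1 and Dusp5 were the other called members, and of the phosphatase Dusp1 the call was lost in 6 of the 12 fits that left out 1 library (largest adjusted p = 0.0681). Without both CT6 libraries 4 members of the list passed, among them neither Egr1 nor Fos (adjusted p = 0.0632 and 0.0551, with log2 differences of 2.64 and 1.36). Without both CT10 libraries 5 passed, again without Egr1 (2.62, adjusted p = 0.0602) and Fos (1.33, adjusted p = 0.0537), and without both CT22 libraries 14 passed.

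Binding sites of CREB hold the letters TGACG, which begin the full palindrome TGACGTCA. RefSeq promoter windows on GRCm38.p6, 250 bases before to 50 after the start of transcription, were at hand for 7 of the 10 genes made up of the called immediate early genes and Sik2, and 6 of the 7 held TGACG on at least 1 strand, as did 20.8% of all 32851 windows. The full palindrome was in 1 of the 7, that of Dusp1, and in 1.79% of all windows. Immediate early genes that were not called were not counted apart. The windows of the 3 genes with the largest differences among the 7 are shown 5′ to 3′ on the gene's strand with each TGACG, read on either strand, in capitals. A match is a description of the letters and not of binding.
Nr4a1 (chr15:101266596-101266895, plus strand): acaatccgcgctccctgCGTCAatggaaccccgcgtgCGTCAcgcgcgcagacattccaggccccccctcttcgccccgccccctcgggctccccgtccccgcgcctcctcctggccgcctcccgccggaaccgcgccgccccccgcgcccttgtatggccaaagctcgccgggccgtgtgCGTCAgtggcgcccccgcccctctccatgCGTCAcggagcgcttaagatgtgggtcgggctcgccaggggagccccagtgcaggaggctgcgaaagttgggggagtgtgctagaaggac
Nr4a3 (chr4:48045055-48045354, plus strand): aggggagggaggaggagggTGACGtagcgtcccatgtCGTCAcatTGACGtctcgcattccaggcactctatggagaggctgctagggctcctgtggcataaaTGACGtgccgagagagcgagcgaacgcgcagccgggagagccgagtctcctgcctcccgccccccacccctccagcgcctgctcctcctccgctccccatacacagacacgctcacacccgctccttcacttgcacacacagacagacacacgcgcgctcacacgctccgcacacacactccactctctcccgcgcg
Fos (chr12:85473640-85473939, plus strand): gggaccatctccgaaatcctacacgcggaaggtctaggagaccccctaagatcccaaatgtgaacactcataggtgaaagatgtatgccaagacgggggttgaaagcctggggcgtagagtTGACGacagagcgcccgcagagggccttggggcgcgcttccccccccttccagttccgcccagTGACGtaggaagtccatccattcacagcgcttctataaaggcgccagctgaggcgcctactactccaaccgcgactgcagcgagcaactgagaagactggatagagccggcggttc
Nr4a1 and Nr4a3 held 4 matches each and Fos held 2, at positions -129 and -66 from the start.

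Genes of cAMP and dopamine signalling moved in both directions. Of 25 members tested, 5 were higher and 2 lower in night libraries, against 2.2% and 1.59% of all genes, and the median log2 difference was 0.05. Besides Drd4 and Sik1, Gnaz, a G-protein subunit that inhibits adenylyl cyclase, was higher by 0.42 ± 0.06 (adjusted p = 0.000882). It lay between 83.3 and 108.4 CPM in night libraries and between 66.2 and 79.6 CPM in day libraries, with no overlap. Pde8a, a phosphodiesterase that breaks down cAMP, was higher by 0.36 ± 0.06 (adjusted p = 0.0031), and the D1 receptor gene Drd1 also passed. The calcium-stimulated cyclase Adcy1 and the G-protein regulator Rgs20 were the lower members. Between 5 and 6 members passed when 1 library was left out, and 4 without both CT6, both CT10 or both CT18 libraries.

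**Figure D2:**
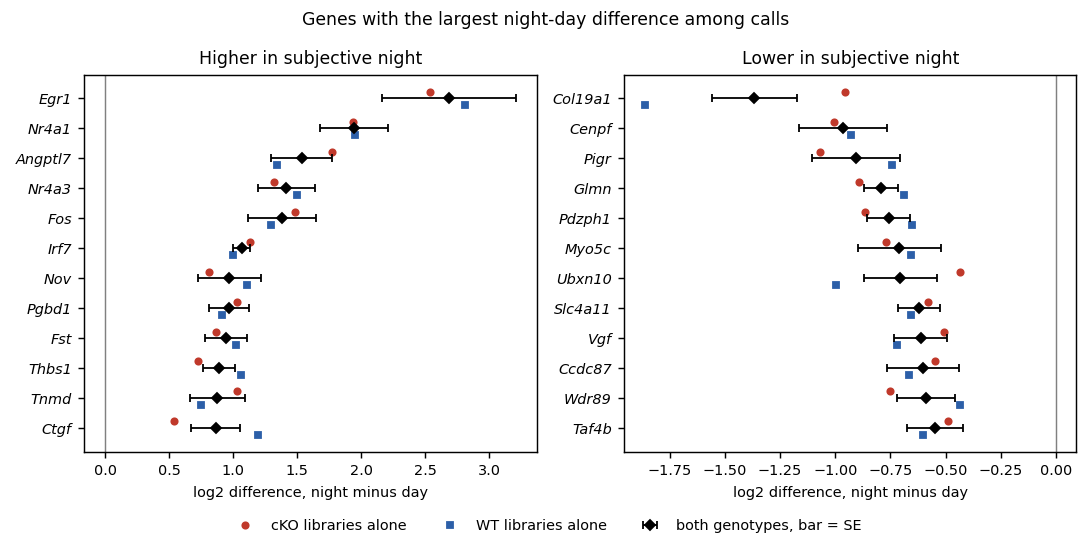
Log2 difference, night minus day (horizontal axis), of the 12 genes with the largest call in each direction among those averaging above 1 on the log2 CPM scale (vertical axis), with black diamonds for both genotypes together, bars for the standard error, red circles for cKO libraries alone and blue squares for WT libraries alone. Egr1 led the higher genes at 2.69 and Col19a1 the lower ones at -1.37, and every gene had the same sign in both genotypes.

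Several of the other large differences among genes higher at night belonged to secreted and structural proteins, though not all did. Angptl7, a secreted factor of cornea and trabecular meshwork, lay between 25.1 and 83.8 CPM in night libraries (median 44.6) and between 11.0 and 31.2 CPM in day libraries (median 13.4), a log2 difference of 1.54 ± 0.24 (adjusted p = 0.00173). Night and day overlapped through WT CT10, the highest day library, and cKO CT22, the lowest night library. Thbs1, a matrix glycoprotein that activates TGF-beta, was higher by 0.89 ± 0.12 (adjusted p = 0.000706), at 95.3 to 184.7 CPM in night libraries and 57.1 to 77.0 CPM in day libraries. Fst, which binds and blocks activin, was higher by 0.94 ± 0.17 (adjusted p = 0.00383), and Pgbd1, a gene derived from a transposase, by 0.97 ± 0.16 (adjusted p = 0.00241), each with no overlap. Nov and Tnmd, a matrix signalling protein and a tendon membrane protein, passed with log2 differences of 0.97 ± 0.25 and 0.88 ± 0.22, but each lost its call in 6 of the 12 fits without 1 library, the WT CT18 library among them (0.69 for Nov, adjusted p = 0.0797, and 0.66 for Tnmd, adjusted p = 0.0818).

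In the list of collagens and matrix proteins 5 of 36 tested members were higher in night libraries and 0 lower, against 2.2% and 1.59% of all genes, with a median of 0.19. The mean centred log2 level of the list ran from -0.14 to 0.44 in night libraries and from -0.27 to 0.08 in day libraries, with WT CT18 highest and cKO CT18 lowest of the night. Marker lists of other tissues were also highest in WT CT18, at 0.68 for red blood cells (0 of 8 called), 0.34 for vessels (1 of 20 called) and 0.30 for immune cells (1 of 26 called), and in cKO CT18 they stood at -0.60, -0.17 and -0.07. Their part in the matrix calls was not tested. Fn1, which codes for fibronectin, was higher by 0.28 ± 0.06 (adjusted p = 0.0139), and Timp3, an inhibitor of matrix proteases made by the pigment epithelium, by 0.29 ± 0.06 (adjusted p = 0.0155). Both genes had all night libraries above all day libraries, and both lost the call without both CT2 or both CT6 libraries (adjusted p up to 0.0746 and 0.0661). Tnc, called by a narrow margin (adjusted p = 0.0434), was lost in 9 of 12 fits without 1 library. The count depended on single libraries: it was 11 without WT CT14, 3 without WT CT2, WT CT10, WT CT18, cKO CT2 or cKO CT10, and 2 without both CT2 libraries.

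Col19a1, a minor collagen, had the largest named difference among lower genes. It stood at 0.917 to 2.65 CPM in night libraries and at 4.14 to 5.56 CPM in day libraries (log2 difference -1.37 ± 0.19, adjusted p = 0.000711), so low that each value rests on few reads. Cenpf, a kinetochore protein, was at 0.857 to 1.83 CPM in night libraries and 2.00 to 2.96 CPM in day libraries (log2 difference -0.97 ± 0.20, adjusted p = 0.0105). Slc4a11, a transporter of the corneal endothelium, averaged 21.4 ± 2.53 CPM in night libraries and 32.9 ± 4.87 in day libraries (SD, n = 6 each; log2 difference -0.62 ± 0.09, adjusted p = 0.0014). The neuropeptide precursor Vgf was lower, with a log2 difference of -0.61 ± 0.12 (adjusted p = 0.00744). These 4 genes had all night libraries below all day libraries. Pigr, which carries antibodies across epithelia, passed at -0.91 ± 0.20 with overlap (adjusted p = 0.0155), and without the cKO CT6 library it did not (-0.78, adjusted p = 0.05004). Cenpf did not pass without both CT10 (-0.82, adjusted p = 0.0796) or both CT18 libraries (-0.83, adjusted p = 0.0753), nor did Vgf without both CT10 libraries (-0.51, adjusted p = 0.0635). Myo5c (-0.71 ± 0.19, adjusted p = 0.0413) and Ccdc87 (-0.60 ± 0.16, adjusted p = 0.0472) were also among the largest lower calls. Each lost its call in 10 of 12 fits without 1 library. Ubxn10, Taf4b and Wdr89 were called lower too, and lost the call in 3, 2 and 0 of these 12 fits. Each of them lost it in 4 of 6 fits without both libraries of a time.

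Genes of the rod and cone lists were lower at night where they differed. Of 28 rod genes tested 9 were lower in night libraries and 0 higher, against 1.59% and 2.2% of all genes, and the median of the list was -0.07. Sag, the arrestin that ends the rod's response to light, had the largest difference at -0.51 ± 0.08 (adjusted p = 0.00241). It lay at 2473 to 3274 CPM in night libraries (median 2664) and at 2925 to 5154 CPM in day libraries (median 4056), and the cKO CT10 library was the highest of all. Guca1b and Guca1a, the calcium sensors that restore cGMP after light, were lower, with a log2 difference of -0.46 ± 0.07 (adjusted p = 0.000757) and -0.38 ± 0.07 (adjusted p = 0.00677). Guca1b was at 653.9 to 914.5 CPM in night libraries and 1004 to 1235 CPM in day libraries, with no overlap, whereas Guca1a overlapped through the WT CT14 library at 471.4 CPM. Reep6, which shapes membrane in rods, was lower, with a log2 difference of -0.28 ± 0.05 (adjusted p = 0.00625), with no overlap. The channel and phosphodiesterase genes Cnga1, Cngb1 and Pde6b and the rod factor Nr2e3 were also among the lower members. In tissue RNA, fewer cells of a type and less RNA per cell cannot be told apart. Without the WT CT10, WT CT18, cKO CT6 or cKO CT10 library 5 rod genes passed, and without both CT10 or both CT18 libraries 3 did, which left out Guca1a (-0.31, adjusted p = 0.0563, and -0.33, adjusted p = 0.0524) and, without CT18, Reep6 (-0.25, adjusted p = 0.053).

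Rod genes are driven by CRX, which binds TAATCC. RefSeq windows were at hand for 6 of the 9 lower rod genes, 4 of which held TAATCC on either strand (7.06% of all windows did). Rod genes that were not called were not counted apart, so these shares do not set called rod genes against other rod genes. The window of Sag, the rod gene with the largest difference, is shown with its 1 match, 87 bases before the start, in capitals, on GRCm38.p6.
Sag (chr1:87803430-87803729, plus strand): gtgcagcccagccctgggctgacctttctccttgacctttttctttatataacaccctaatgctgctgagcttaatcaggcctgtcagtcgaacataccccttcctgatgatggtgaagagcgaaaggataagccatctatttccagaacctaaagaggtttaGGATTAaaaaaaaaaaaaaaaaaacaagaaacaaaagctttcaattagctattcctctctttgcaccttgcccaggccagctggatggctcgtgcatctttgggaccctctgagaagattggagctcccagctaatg
Among 16 cone genes 1 was lower, the cone phosphodiesterase Pde6c (-0.26 ± 0.05, adjusted p = 0.00881), at 59.9 to 70.4 CPM in night libraries and 65.8 to 83.5 CPM in day libraries. Of 19 bipolar cell genes 1 was higher, the glutamate receptor Grm6 (0.23 ± 0.05, adjusted p = 0.0121), a call that was lost without both CT6, both CT10 or both CT18 libraries (adjusted p = 0.0758, 0.0891 and 0.0712). Of 15 ganglion cell and 17 Müller glia genes 0 passed, with 1 and 4 members at an unadjusted p under 0.05. Beside these counts, 2.2% of all genes were higher in night libraries and 1.59% were lower.

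Chaperones were higher at night where they differed. In the list of heat shock and cold-inducible genes 12 of 36 were higher and 1 lower, against 2.2% and 1.59% of all genes. The median of the list was 0.14. The constitutive chaperone Hspa8 stood at 1408 to 1680 CPM in night libraries and 1196 to 1327 CPM in day libraries, a log2 difference of 0.30 ± 0.05 (adjusted p = 0.00193) with no overlap. Genes of the unfolded protein response in the endoplasmic reticulum took part: Xbp1, its transcription factor, was higher by 0.37 ± 0.06 (adjusted p = 0.00174) and Manf, a secreted chaperone, by 0.27 ± 0.05 (adjusted p = 0.00267). Hspa5, Hyou1, Hsp90aa1, Hsph1, Dnaja1, Stip1, Chordc1 and the near-identical pair Hspa1a and Hspa1b, between which reads can be split, were the other higher members. The lower member was Cirbp, an RNA-binding protein induced by cold, at 196.6 to 253.8 CPM in night libraries and 252.2 to 298.3 CPM in day libraries (-0.32 ± 0.05, adjusted p = 0.00311). Night and day values of Cirbp crossed only at the cKO libraries of CT18 and CT2. When the cKO CT18 library was left out 8 members passed, and without both CT6, both CT10 or both CT18 libraries 6, 6 and 7 did.

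Genes of cholesterol synthesis were lower at night where they differed. Of 35 genes of cholesterol and fatty acid synthesis tested 6 were lower and 0 higher, against 1.59% and 2.2% of all genes. The median was -0.10. Insig1, which holds the sterol sensor in the endoplasmic reticulum and is itself a target of SREBP, lay between 108.7 and 136.1 CPM in night libraries and between 148.1 and 159.9 CPM in day libraries (-0.29 ± 0.05, adjusted p = 0.00267). Lss, the lanosterol synthase, was lower, with a log2 difference of -0.24 ± 0.04 (adjusted p = 0.00523), again without overlap. The farnesyl diphosphate synthase gene Fdps (-0.24 ± 0.05, adjusted p = 0.0122) passed with overlap, and lost the call without both CT6 (adjusted p = 0.0895) or both CT18 libraries (adjusted p = 0.093). Sqle and Nsdhl also passed, and without both CT6 or both CT18 libraries 2 of the list passed. Cpt1a, which admits fatty acids to mitochondria, was also lower (-0.24 ± 0.03, adjusted p = 0.000706), at 159.2 to 165.9 CPM in night libraries and 182.8 to 205.4 CPM in day libraries. Hk2, a hexokinase, was higher by 0.42 ± 0.09 (adjusted p = 0.0114), though not without both CT6 libraries (0.37, adjusted p = 0.0746).

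**Figure D3:**
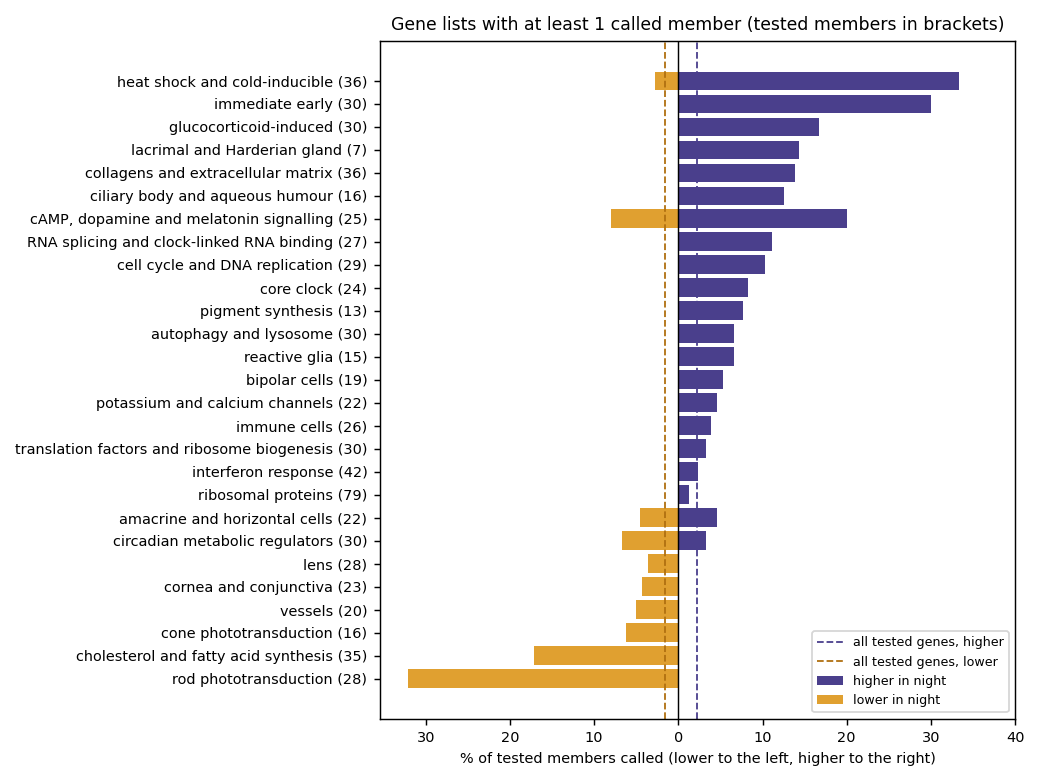
Share of the tested members of each gene list (vertical axis, members tested in brackets) that were called higher in night libraries (purple, to the right) or lower (orange, to the left), in percent (horizontal axis), for the 27 of 39 lists with a called member; dashed lines give the shares over all genes, 2.2% higher and 1.59% lower. Heat shock and immediate early genes reached farthest to the right and rod genes farthest to the left.

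Genes known to be induced by glucocorticoids, the ligands of the deleted receptor, were higher at night where they differed. Of 30 members tested 5 were higher and 0 lower, against 2.2% and 1.59% of all genes. The median log2 difference was 0.17 over both genotypes, 0.17 in cKO alone and 0.12 in WT alone. The kinase Sgk1 was higher by 0.20 ± 0.04 (adjusted p = 0.0131), with night libraries at 402.4 to 453.0 CPM and day libraries at 350.4 to 390.9 CPM and no overlap, a call lost without both CT6 or both CT18 libraries (adjusted p up to 0.0985). Ddit4, an inhibitor of mTOR, was higher by 0.37 ± 0.08 (adjusted p = 0.0182) with overlap, and lost its call without the cKO CT6 library (0.35, adjusted p = 0.05004). Dusp1, Tsc22d3 and the repressor Bcl6 also passed. The count was 1 without cKO CT6, 2 without cKO CT14 or cKO CT22, and 3 without WT CT2, cKO CT2 or cKO CT10, and it was 1 without both CT6 or both CT18 libraries. For Bcl6 the call was lost in 7 of 12 such fits, with an adjusted p of up to 0.0793.

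Core clock genes were mostly not separated between night and day. Of 24 members tested 2 were higher in night libraries and 0 lower, against 2.2% and 1.59% of all genes. The median log2 difference was 0.01. Rorb, a nuclear receptor that activates through the ROR element and is abundant in the retina, was higher by 0.39 ± 0.06 (adjusted p = 0.00193), at 288.7 to 349.4 CPM in night libraries and 216.5 to 296.3 CPM in day libraries. Night and day overlapped through WT CT2, the highest day library, alone. Nfil3, a repressor that competes with the PAR bZIP factors, passed at 0.33 ± 0.08 (adjusted p = 0.0296) but lost the call in 6 of 12 fits without 1 library (WT CT6, WT CT10, cKO CT6, cKO CT10, cKO CT18 and cKO CT22, adjusted p up to 0.0752). Without WT CT14, 4 members of the list passed.

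The other 22 clock genes did not pass, and Dbp and Per1 differed within the night. Dbp, a PAR bZIP output factor, had its highest values at CT10, at 191.1 CPM in cKO and 175.2 CPM in WT, had 163.8 CPM in cKO and 166.5 CPM in WT at CT14, and had its lowest night values at CT22, at 115.1 CPM in cKO and 104.9 CPM in WT. Its night-day difference was -0.19 ± 0.11 (adjusted p = 0.38), while it differed among the 3 night times (adjusted p = 0.0102). Per1, a repressor of the loop, was highest at CT14 in both genotypes, at 87.0 CPM in cKO and 91.6 CPM in WT, and had a night-day difference of 0.16 ± 0.11 (adjusted p = 0.476) with a difference among night times (adjusted p = 0.00598). Npas2, a partner of BMAL1, gave -0.45 ± 0.19 (adjusted p = 0.215) and Ciart, a repressor of the loop, -0.43 ± 0.16 (adjusted p = 0.154). The BMAL1 gene Arntl gave -0.04 ± 0.06 (adjusted p = 0.75), Nr1d1, its repressor, -0.07 ± 0.05 (adjusted p = 0.555) and Per2 0.23 ± 0.12 (adjusted p = 0.326).

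**Figure D4:**
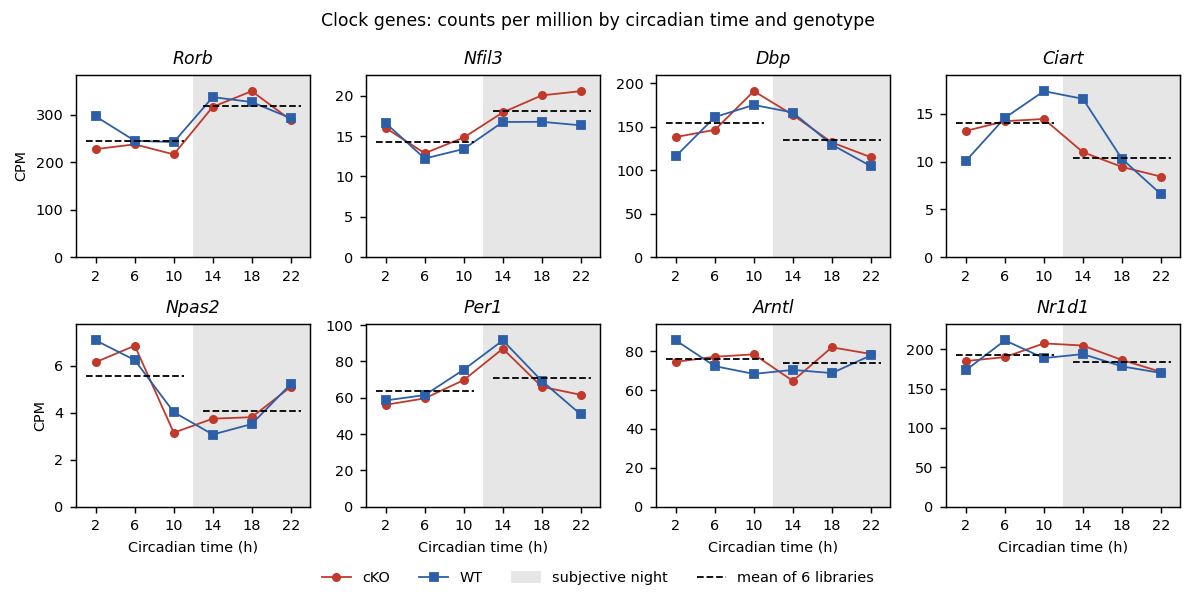
CPM (vertical axis) of 8 clock genes against circadian time in hours (horizontal axis) for cKO (red circles) and WT (blue squares), 1 library per point, with subjective night in grey and the mean of the 6 libraries of a phase dashed. Rorb and Nfil3 had a higher night mean, whereas Dbp was highest at CT10 and Per1 at CT14 and both were lower by CT22.

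When in the night or day the calls were extreme was read from the mean of the 2 genotypes at each time. Of the 333 higher genes 133 (39.9%) peaked at CT14, 149 (44.7%) at CT18 and 51 (15.3%) at CT22. Of the 241 lower genes 70 (29%) peaked at CT2, 54 (22.4%) at CT6 and 117 (48.5%) at CT10. A test of the 3 night times against each other called 25 genes (0.165%), of which 6 were also night-day calls: Ak4, Egr1, Fos, Nr2e3, Nr4a1 and Slc16a3, named after their values were seen. Nr2e3 was lowest at CT14, at 235.0 CPM in cKO and 266.6 CPM in WT, and the other 5 were highest there. The 3 day times differed in 5 genes (0.033%), namely Arr3, Hist2h2aa2, Pcdh15, Rbm3 and Tcap, also named after their values were seen, and 0 of them were night-day calls, while 1066 genes had an unadjusted p under 0.05 for the day times. By limma-trend 26 genes passed for the night times and 5 for the day times.

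In the ciliary body and aqueous humour list Aqp1 and Myoc, the myocilin of the outflow pathway, were higher of 16 tested, with a list median of 0.11, and Myoc (0.86 ± 0.20, adjusted p = 0.0235) lost its call in 7 of 12 fits without 1 library. The mean centred log2 level of this list was highest in WT CT18, at 0.31, and lowest of the night in cKO CT18, at -0.15. The part of tissue content in these calls was not tested. Among 27 splicing and RNA-binding genes 3 were higher, of which Tra2a, a splicing activator, was at 160.9 to 178.3 CPM in night libraries and 122.6 to 153.1 CPM in day libraries (0.32 ± 0.05, adjusted p = 0.00202), beside Clk1 (0.18 ± 0.04, adjusted p = 0.0147, lost without both CT10 or both CT14 libraries) and Srsf7, which lost its call in 10 of 12 fits without 1 library. Among 29 cell cycle genes 3 were higher, genes of G1 and of the start of replication: the replicative helicase subunit Mcm6 (0.48 ± 0.08, adjusted p = 0.00267), its partner Mcm7 (0.29 ± 0.07, adjusted p = 0.0189, up to 0.0909 without both libraries of a time) and the G1 cyclin Ccnd1 (0.36 ± 0.06, adjusted p = 0.00392). Without the cKO CT22 library 5 cell cycle genes passed, and the fewest without both libraries of a time were 2. The median of the cell cycle list was -0.01, with 14 members above 0 and 15 below. Kdr, the main VEGF receptor of endothelium, was the 1 called gene of 20 vessel genes and was lower (-0.22 ± 0.04, adjusted p = 0.00433), with no overlap. Beside these counts, 2.2% of all genes were higher in night libraries and 1.59% were lower.

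In 12 lists 0 members passed, among them the pigment epithelium and visual cycle list (21 tested, 5 with an unadjusted p under 0.05), the proteasome (35 tested, 3), the 13 mitochondrially encoded genes (0) and nuclear oxidative phosphorylation (66 tested, 5). The lens list had 1 lower gene of 28, the gap junction gene Gja3 (-0.27 ± 0.05, adjusted p = 0.00818), but 27 of the 28 had a difference below 0 and the median was -0.20. The summed lens level ran from 44281 CPM, in WT CT22, to 70935 CPM in night libraries (median 67768) and from 62949 to 86570 CPM in day libraries (median 72244). The part of lens RNA in the other differences was not tested, and without WT CT22 566 genes passed, 467 of them among the 574. Of 26 immune cell genes 1, C1qa, and of 42 interferon genes 1, Irf7, passed, both higher, shares near those over all genes. The C1qa call was lost in 8 of 12 fits without 1 library, while without WT CT14 the counts were 5 and 3.

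Whether the night-day difference depended on genotype was tested by the interaction of genotype and phase. It was called in 0 genes (0%) by edgeR, with 396 genes at an unadjusted p under 0.05. Limma-trend called 0 genes (401 unadjusted), and DESeq2 called 1, the histone chaperone gene Hjurp, named after its value was seen (adjusted p = 0.0495, 181 unadjusted). In simulated data with known changes, the same fit recovered 49 of 100 genes whose change differed by 0.6 on the log2 scale and 88 of 100 at 1.2.

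Fitted by genotype, 178 genes passed in cKO libraries alone (1.18%) and 5 in WT libraries alone (0.033%). All 5 also passed in cKO: Irf7, Drd4, Fscn2, Col19a1 and BC027072. Col19a1 did so by a narrow margin (adjusted p = 0.0457 in cKO and 0.0459 in WT) and did not pass when the filter was set on the libraries of 1 genotype (adjusted p = 0.0507 in cKO and 0.0516 in WT). Of the 178 genes, 164 had the same sign in WT, with a median log2 change in the called direction of 0.39 in cKO, where they were chosen, and 0.28 in WT. Of all genes tested 65.5% had the same sign in both genotypes. The 574 genes were chosen on both genotypes together, so that their common sign in cKO and WT follows in part from the choice. The log2 difference was 1.14 in cKO and 1.00 in WT for Irf7, 0.82 in cKO and 0.71 in WT for Drd4, and 1.94 in cKO and 1.95 in WT for Nr4a1. It was -0.59 in cKO and -0.43 in WT for Sag, and -0.95 in cKO and -1.86 in WT for Col19a1.

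**Figure D5:**
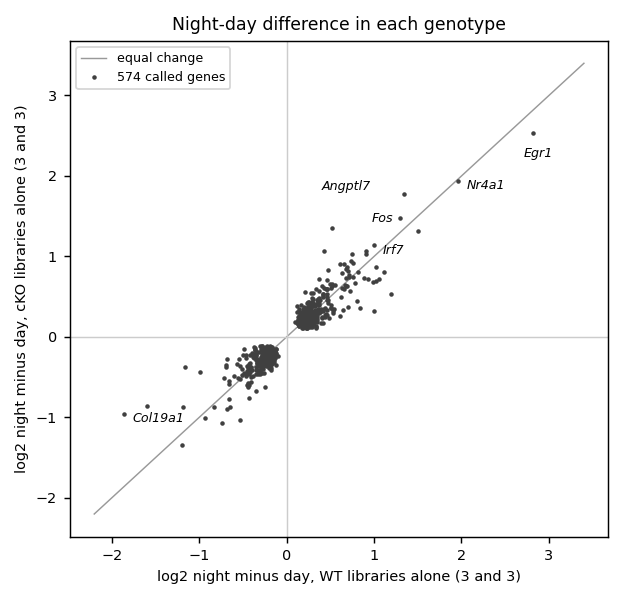
Log2 difference, night minus day, in cKO libraries alone (vertical axis) against WT libraries alone (horizontal axis) for the 574 called genes, 3 night and 3 day libraries in each; the line marks equal change. All points lay in the 2 quadrants of equal sign, which the joint choice of genes favours, with Egr1 farthest up and Col19a1 farthest to the left.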

How the data were processed

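Whole-eye RNA was sequenced in 12 libraries, 1 per genotype and circadian time. The authors deposited 1 table of whole-number read counts per gene, which its sheet calls raw data; no label or header used here names the aligner, counter, genome build or annotation. Of 32544 entries, 27 whose names a spreadsheet had turned into dates were left out. TMM scaling in edgeR 4.0.16 (R 4.3.3) was applied, and genes with at least 10 counts in enough libraries (filterByExpr by phase, minimum total 15) were tested. The main fit was edgeR's quasi-likelihood F test of night against day with genotype as covariate (9 residual degrees of freedom) and Benjamini-Hochberg adjusted p under 0.05, which gave every adjusted p in the text unless another tool is named. Libraries of 1 phase and genotype come from 3 times, so p-values of the main fit measure the spread over times and pools. Genotype by phase was tested in the same way. The 3 times within a phase were tested in a fit with genotype and time. Its p-values measure how far the cKO and WT libraries of 1 time disagree beyond a constant genotype difference. Standard errors are the log2 difference divided by the root of F.

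The fit was tested on simulated data: it recovered 55 of 100 genes with a log2 change of 0.3 and 88 of 100 with one of 0.6. Of the 15061 genes it also called 17 unchanged ones. These were a larger share of its calls than the adjusted p threshold of 0.05 aims at. Totals of 10466253 to 10686868 counts limit the precision of genes at a few CPM; any subsampling or scaling before deposit is not stated. Named genes are those with the largest change or smallest p per direction above 1 on the average log2 CPM scale, and members of gene lists. Members, lists and named genes were chosen with earlier results of these data known. DESeq2 1.42.0 and limma 3.58.1, other filters and scalings, and leaving out libraries or times were alternatives. A few list members are counted but not reported by name here.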

Additional observations from a re-analysis of the deposited data

Results flagged for a closer look

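Among 234 groups of 6 values, 10 held 1 library that lay far from the other 5; chance flags about 1 in 20 groups. In night libraries, the WT CT18 library had 8.282 CPM of Nov, against 2.884 to 4.315 in the others, the cKO CT18 library 137.3 CPM of Grm6, against 119 to 125.3, the WT CT14 library 13.46 CPM of Mcm6, against 17.51 to 19.23, and the same library 471.4 CPM of Guca1a, against 320.2 to 367.3. The summed level of 3 skin and hair genes was 68.91 CPM in the cKO CT22 library and 27.61 to 33.94 in the other night libraries.

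In day libraries, the WT CT2 library was high for 3 genes, with 37.08 CPM of Ppp2r1b, against 29.82 to 32.22 in the others, 296.3 CPM of Rorb, against 216.5 to 245.2, and 159.9 CPM of Insig1, against 148.1 to 151.4. The cKO CT10 library had 1211 CPM of Reep6, against 1022 to 1053, and the WT CT6 library a summed ciliary body list of 3208 CPM, against 2851 to 2984. No explanation of these values was tested.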

How the results depend on the processing

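The night-day calls, 574 with 333 higher and 241 lower, numbered 571 with DESeq2 size factors, 603 by DESeq2, of which 520 were shared with the 574, 552 by limma-trend, 736 with no filter and 557 with no genotype covariate. With time as a factor 738 passed, and with time as a random block 484. None of the 574 changed sign in any of these fits. Leaving out 1 library gave 324 to 692 calls (193 to 400 higher, 131 to 292 lower), and the count was 357 without WT CT18, 324 without cKO CT6 and 382 without cKO CT10. Without both CT6 libraries 223 genes passed (119 higher, 104 lower), without both CT10 libraries 214 (120 higher, 94 lower) and without both CT18 libraries 221 (128 higher, 93 lower). With the genotypes summed per time 278 passed (173 higher, 105 lower), 250 of them among the 574. In cKO libraries alone 176 passed (115 higher, 61 lower) and in WT libraries alone 4 (2 higher, 2 lower), the filter being set on those libraries. These fits hold fewer samples. The interaction gave 1 call by DESeq2, 3 without both CT14 libraries, 2 without both CT18 libraries and 2 without both CT22 libraries. Among genes not called, the sign of Per1 changed without both CT14 libraries (-0.038) and that of Arntl did so there (0.012) and in 1 of the 12 fits without 1 library, that without WT CT2 (0.000977, with a range of -0.0765 to 0.000977 over the 12); the cause was not tested. Of 83 called genes followed through every alternative, 39 passed all but the fits of 1 genotype alone, and 3 of them (Irf7, Drd4 and Fscn2) passed those too. The 83 hold some genes that the text does not name and lack some called genes that it does name. Night and day libraries could not be paired, as they come from different times and different pools of mice. The cKO and WT libraries share each time, and neither the main fit nor the interaction fit used that pairing.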

Other observations

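Further gene lists were put together after values had been seen, so their counts follow in part from the choice and were not tested. Over all genes 2.2% were higher and 1.59% lower in night libraries. Of 25 genes of glycolysis and lactate export tested, 9 were higher in night libraries and 0 lower (Hk2, Pfkp, Aldoa, Tpi1, Pgk1, Pgam1, Eno2, Ldha and the lactate exporter gene Slc16a3), and the median log2 difference was 0.10. Of 28 genes known to be induced by low oxygen 7 were higher and 0 lower, among them the mitophagy receptor gene Bnip3, the collagen hydroxylase gene P4ha1 and the adenylate kinase gene Ak4, and the median was 0.17. The mean centred log2 level of this list was highest in WT CT14, at 0.34, and next in cKO CT14, at 0.15.

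Of 16 genes of tendon and fibrous tissue 6 were higher and 0 lower (Tnmd, Mkx, Thbs4, Omd, Aspn and Angptl7), with a median of 0.52. Their mean centred level ran from -0.13 to 0.78 in night libraries, with WT CT18 highest, and from -0.45 to 0.17 in day libraries. Of 12 genes of actins and actin-binding proteins 0 were higher and 4 lower (Actb, Actg1, Fscn2 and Wdr1), with a median of -0.14.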
